A study of Rattus norvegicus with 63 samples.

Results

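C.I. Direct Black (CIDB, also sold as Chlorazol Black) was compared with its vehicle, corn oil, in the livers of rats after 7 days of daily dosing by gavage. The members of the comparison were chosen from the sample labels alone. They are the 3 animals given CIDB at 146 mg/kg/d (numbered 1 to 3) and the 3 corn oil animals that carry the same control set number, set 3, and the same duration of 7 days (numbered 4 to 6). These are 6 of the 63 animals of the series, and all 158 measured analytes were examined in them. For reference, the text also uses the 3 animals given dimethylnitrosamine (DMN) at 4 mg/kg/d for 7 days, which share the corn oil animals of set 3, and the 3 corn oil animals of set 4, which were dosed for 14 days. All of these animals were male Wistar Hanover rats, 8 to 10 weeks old when they were assigned to dose groups of 5. According to the study's methods, the treated animals were picked from their dose groups for some histopathological change in the liver, so effects of CIDB and of this choice cannot be told apart. The series as a whole asked whether early changes in the liver separate genotoxic carcinogens, the class in which the study places CIDB and DMN, from non-genotoxic carcinogens and non-carcinogens.

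CIDB is an azo dye built on benzidine. Cleavage of the azo bonds by gut bacteria and by the liver releases benzidine, which is known to be activated further to products that bind DNA. Among the proteins known to be induced in cells with damaged DNA is BAX, a protein that permeabilises the outer mitochondrial membrane and so starts apoptosis. BAX is opposed by BCL2L1 and MCL1, which hold the membrane closed. STAT3 is a transcription factor of the cytokine response in hepatocytes. Janus kinases phosphorylate it on a tyrosine, it then enters the nucleus, and SOCS3 is a feedback inhibitor of this path. JUN is a component of the transcription factor AP-1, which lies downstream of the stress kinases. None of this background is a result of the comparison.

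Proteins were measured on reverse-phase protein arrays, which carry spots of every lysate and are incubated with 1 antibody per array, raised to a protein or a modified form. The value used is the relative fluorescence intensity (RFI), which has no unit and can be compared between animals for the same antibody, but not between antibodies. An analyte is named by its gene symbol with the modified residue added, so that STAT3_P-Y705 is STAT3 phosphorylated on a tyrosine, and numbered antibodies such as CYP3A4_1 and CYP3A4_2 carry the same symbol. Of the 158 analytes, 104 were total proteins and 54 were modified forms. The median RFI over analytes was 0.515 to 0.563 in the CIDB animals and 0.466 to 0.548 in the controls, and none of the 948 values of these 6 animals was at or below 0. DMN had 2 such values and set 4 had 3, all 3 in animal 3 of set 4. The root mean square log2 distance of an animal to its group mates was 0.297 to 0.393 in CIDB and 0.448 to 0.549 in set 3, with a median of 0.392 over all 63 animals. Animal 3 of set 4 (0.733) and DMN animal 1 (0.736) were farther from their groups, and some of the results that rest on them are given without them as well. Differences are given on the log2 scale of RFI with the standard error (SE) of a limma fit over all 63 animals, and an analyte was called at a Benjamini-Hochberg adjusted p below 0.05. Liver lysates hold many cell types, and fewer cells of a type cannot be told apart from less of a protein per cell. The hepatocyte proteins HNF4A, CYP1A2, CYP2E1 and GLUL had values above 0 in all 6 animals. GLUL was close to 0 under CIDB, and GLUL and HNF4A were called lower there. The markers listed for other liver cell types were not among the analytes.

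Under CIDB 7 analytes were higher and 5 were lower than in the corn oil animals. The regulators of apoptosis BAX, BCL2L1 and MCL1, the transcription factors STAT3 and JUN, tyrosine-phosphorylated STAT3_P-Y705 and histone HIST1H3A were higher. Glutamine synthetase (GLUL), CYP3A4_2, the transcription factor HNF4A, CDKN1B_P-S10 and MAPK3_P-T202/Y204 were lower. These 12 calls are 7.59% of the 158 analytes, with 4.43% higher and 3.16% lower, and 27 analytes (17.1%) had an unadjusted p below 0.05 in limma. The 3 CIDB animals lay entirely above or below the 3 controls in 37 analytes (23.4%), above in 26 (16.5%) and below in 11 (6.96%). All 12 called analytes were among these, and 25 that did not overlap were not called. The median difference over all analytes was 0.08 on the log2 scale.

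**Figure D1:**
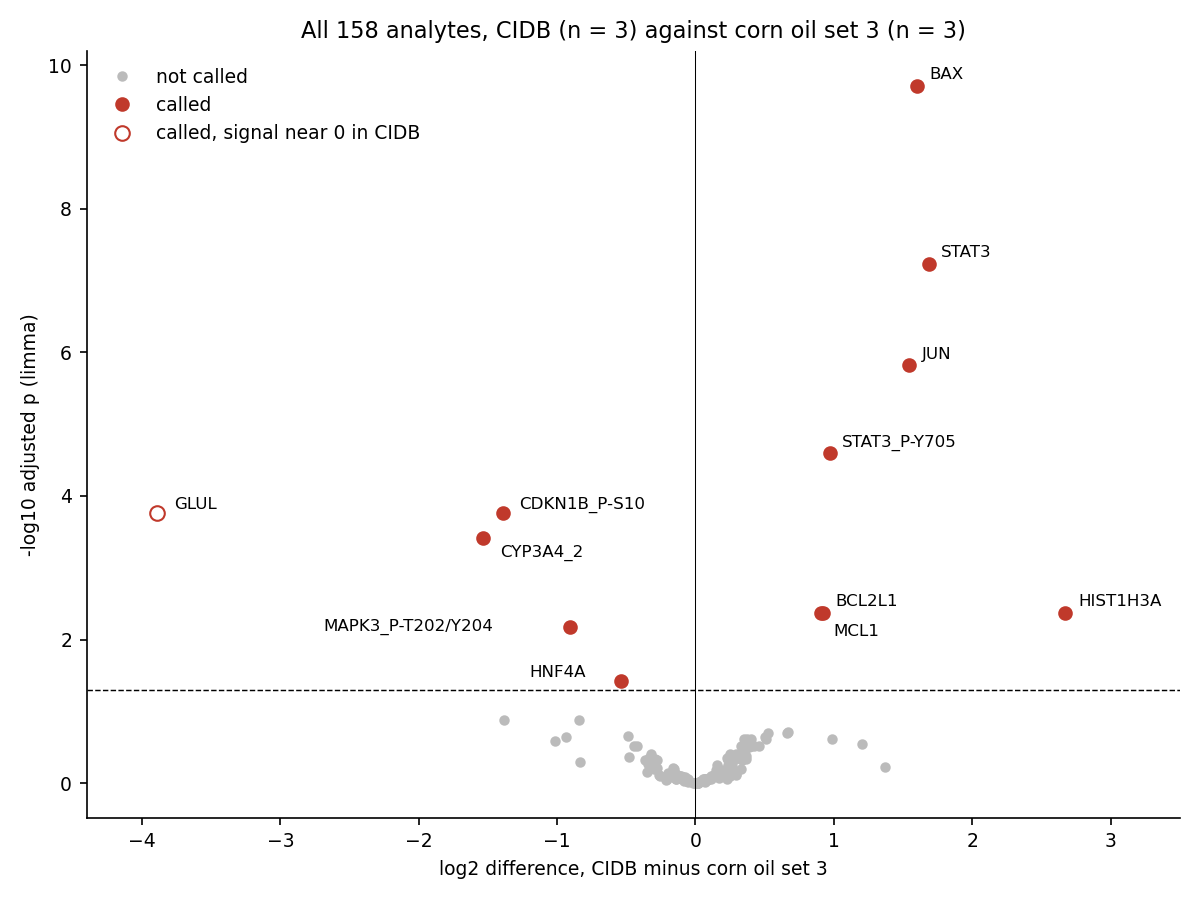
Each point is 1 of the 158 analytes, with the log2 difference between CIDB and corn oil set 3 on the horizontal axis and the negative log10 of the limma adjusted p on the vertical axis, and the dashed line at an adjusted p of 0.05. The 7 higher and 5 lower analytes that were called stand above the line, and the position of GLUL (open circle) on the horizontal axis has no meaning as a size because its signal was close to 0 in the CIDB animals.

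Of the 5 apoptosis regulators measured, 3 rose and none fell, with a median log2 difference of 0.91 beside 0.08 over all analytes. BAX had an RFI of 1.39, 1.72 and 1.44 in the CIDB animals and of 0.432, 0.541 and 0.527 in the controls. The lowest CIDB animal was thus above the highest control by more than the whole range of either group. The difference was 1.60 on the log2 scale (SE 0.166, limma adjusted p = 1.92e-10), which is 3.04-fold. BCL2L1, the anti-apoptotic protein also known as Bcl-xL, had an RFI of 1.64, 2.16 and 1.70 under CIDB and of 0.751, 1.26 and 0.937 in the controls. It rose by 0.92 (SE 0.233, limma adjusted p = 4.22e-03), and CIDB animal 2 was the highest of the 6. MCL1, a short-lived anti-apoptotic relative, was close together in the CIDB animals at 0.420, 0.455 and 0.459, against 0.184, 0.234 and 0.308 in the controls. It rose by 0.91 (SE 0.230, limma adjusted p = 4.22e-03). Pro-apoptotic BAX and its anti-apoptotic opponents BCL2L1 and MCL1 were therefore higher in the same animals. AVEN, an inhibitor of caspase activation, lay above the control range at a low level (0.145 to 0.159 against 0.0971 to 0.135) and was not called, with a difference of 0.37 (adjusted p = 0.455). BIK, a pro-apoptotic relative of BAX, overlapped, with a difference of -0.06. The calls of 2 of these proteins rested on single animals: without control animal 4, BCL2L1 was at 0.74 (adjusted p = 0.0754) and MCL1 at 0.72 (adjusted p = 0.0759), and without CIDB animal 2, BCL2L1 was at 0.80 (adjusted p = 0.0573).

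The DNA damage list held 4 measured analytes, and BAX was its only call. The median difference of the list was 0.27 beside 0.08 over all analytes.

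**Figure D2:**
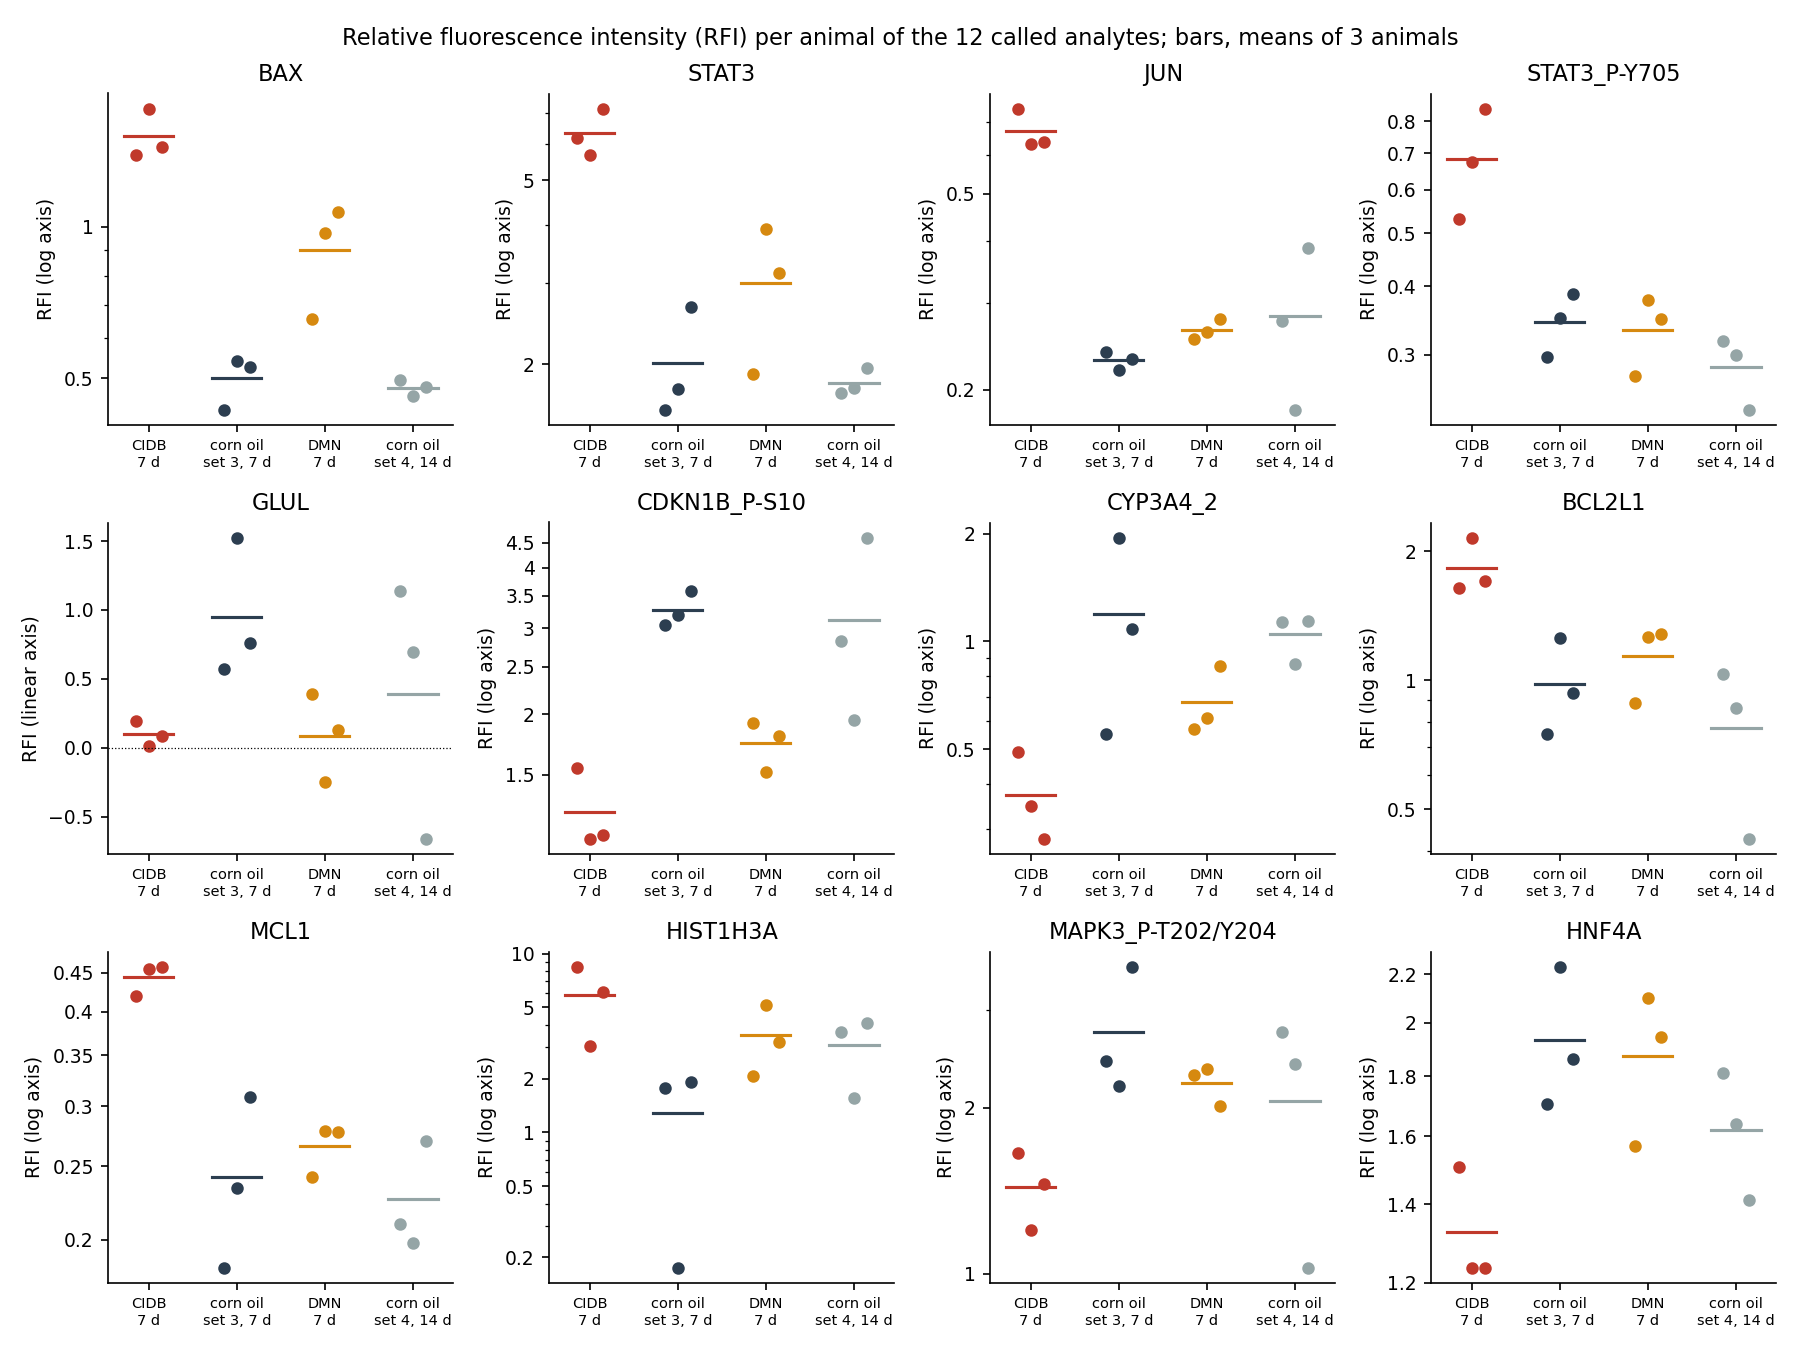
RFI of each animal for the 12 called analytes, in order of adjusted p, with points for the 3 animals and a bar for the mean of each group (log axis, but a linear axis for GLUL, which has values below 0). The CIDB animals stand apart from corn oil set 3 in all 12 panels, and for BAX, STAT3, JUN, STAT3_P-Y705, CYP3A4_2, BCL2L1 and MCL1 they also stand apart from DMN and from corn oil set 4.

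Of the 13 analytes of STAT and NF-kappaB signalling, 2 rose, both of them STAT3, and the median difference of the list was 0.08, as over all analytes. Total STAT3 was 6.18, 5.68 and 7.15 under CIDB and 1.60, 1.77 and 2.67 in the controls. The groups were far apart, with every CIDB animal above every control, and the difference was 1.69 (SE 0.218, limma adjusted p = 5.80e-08), or 3.22-fold. STAT3_P-Y705 was 0.530, 0.674 and 0.844 under CIDB and 0.298, 0.350 and 0.387 in the controls. It rose by 0.97 (SE 0.168, limma adjusted p = 2.55e-05), or 1.96-fold. The serine-phosphorylated form STAT3_P-S727 was 0.347, 0.458 and 0.350 against 0.266, 0.312 and 0.418, an overlap, with a difference of 0.23 (adjusted p = 0.750). The differences of the phosphorylated forms were thus smaller than that of the total, which was not tested as a contrast. Set against the STAT3 signal of the same animal, the STAT3_P-Y705 signal was 0.0858, 0.119 and 0.118 under CIDB and 0.186, 0.197 and 0.145 in the controls. This ratio is a description, since it divides the signals of 2 antibodies and is not the phosphorylated share of the protein. Such ratios could be formed for 47 modified forms. In 21 of them CIDB and the controls did not overlap, with 15 lower and 6 higher under CIDB, so a lower ratio was not particular to STAT3.

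The kinases upstream of STAT3 and its relatives did not pass the test. JAK1 and JAK2 and their phosphorylated forms overlapped between the groups, with differences from -0.12 to 0.25. SOCS3 was 0.164, 0.174 and 0.160 under CIDB and 0.0801, 0.103 and 0.139 in the controls, and its difference of 0.67 was not called (adjusted p = 0.202). The name of this antibody is in doubt, since over the 45 treated animals its intensities had a Spearman correlation of -0.238 with the deposited log2 ratios of the same name, and 117 other names correlated more closely. STAT5A_P-Y694, the active form of a growth hormone-responsive factor, was narrow under CIDB at 0.206, 0.185 and 0.181 and wide in the controls at 0.303, 0.745 and 0.542. With a difference of -1.38 (adjusted p = 0.132) it was not called, although the groups did not overlap, and total STAT5A was 0.08 apart. Within the STAT family, total STAT3 and its tyrosine-phosphorylated form were the calls.

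JUN was the only call among 9 analytes of the stress kinase and AP-1 list, which had a median difference of 0.32. It was 0.745, 0.631 and 0.636 under CIDB and 0.239, 0.220 and 0.230 in the controls, whose 3 values lay close together. The difference was 1.54 (SE 0.232, limma adjusted p = 1.51e-06), or 2.91-fold. Of the kinases that lead to JUN, the c-Jun N-terminal kinase MAPK8 and its phosphorylated form MAPK8_P-T183/Y185 overlapped, with differences of -0.32 (adjusted p = 0.397) and -0.34 (adjusted p = 0.448). The upstream kinase MAP3K7 was 2.39, 1.95 and 2.10 against 1.57, 1.64 and 1.74, above all controls but not called (0.38, adjusted p = 0.243). The p38 kinase MAPK14 was 0.586, 0.553 and 0.699 against 0.407, 0.508 and 0.478, likewise above and not called (0.40, adjusted p = 0.243). Its phosphorylated form MAPK14_P-T180/Y182 overlapped at -0.48 (adjusted p = 0.438). The phosphorylated kinase MAP2K4_P-S257/T261 was 0.445, 0.339 and 0.381 against 0.250, 0.257 and 0.371, an overlap, and total MAP2K4 overlapped too.

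In the ERK cascade 1 of 16 analytes was called. MAPK3_P-T202/Y204, the doubly phosphorylated active form of ERK1, was 1.66, 1.20 and 1.46 under CIDB and 2.43, 2.19 and 3.60 in the controls. It fell by 0.91 on the log2 scale (SE 0.241, limma adjusted p = 6.62e-03). The total kinase MAPK3 overlapped, with a difference of 0.24 (adjusted p = 0.723). The signal of MAPK3_P-T202/Y204 over that of MAPK3 was 1.26, 1.18 and 1.36 under CIDB and 3.07, 1.91 and 3.75 in the controls. This was among the 15 of 47 such ratios that lay below all controls, and it was not tested. ELK1, a nuclear substrate of ERK, was 1.69, 1.71 and 1.56 against 2.48, 2.97 and 3.51. With a difference of -0.84 (adjusted p = 0.132) it was not called, level with STAT5A_P-Y694 as the uncalled analyte closest to the threshold. The call of MAPK3_P-T202/Y204 was lost without CIDB animal 2 (-0.79, adjusted p = 0.0795) and without control animal 6 (-0.70, adjusted p = 0.105).

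Of 16 cell cycle analytes, only CDKN1B_P-S10 was called. CDKN1B is p27, an inhibitor of cyclin-dependent kinases, and its serine phosphorylation is known to promote export from the nucleus. The signal was 1.55, 1.11 and 1.13 under CIDB and 3.05, 3.20 and 3.59 in the controls, and the gap between the groups was wider than the range of either. It fell by 1.39 (SE 0.274, limma adjusted p = 1.72e-04). Total CDKN1B was 0.134, 0.122 and 0.110 against 0.0947, 0.108 and 0.121, with a difference of 0.18 (adjusted p = 0.694), and CDKN1B_P-T187 overlapped at 0.29 (adjusted p = 0.448). The names of these antibodies have a limit. In the deposited log2 ratios the values under the name CDKN1B_P-S10 differed by -0.46 (adjusted p = 0.900) and those under the name CDKN1B by -1.58 (adjusted p = 4.07e-04), the opposite direction from CDKN1B here. Over the 45 treated animals the intensities named CDKN1B_P-S10 followed the log2 ratios named CDKN1B with a Spearman correlation of 0.963 and those of their own name with 0.330. Which form of p27 the change belongs to was therefore not settled.

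The proliferation marker MKI67 (-0.17), cyclins CCNA2 (-0.35) and CCND1 (-0.30) and MYC (-0.01 on the log2 scale) overlapped between CIDB and the controls. Cyclin CCNE2 was 0.227, 0.246 and 0.220 against 0.145, 0.212 and 0.206, above all controls and not called (0.32, adjusted p = 0.413). Total AURKA was likewise above all controls and not called (0.34, adjusted p = 0.471). AURKA_P-T288/T232/T198, the activated Aurora kinases of mitosis, was 0.112, 0.102 and 0.0984 under CIDB and 0.0698, 0.0606 and 0.0887 in the controls. It had a difference of 0.53 and was not called (adjusted p = 0.202). Its name is in doubt too, with a correlation of 0.257 to the deposited log2 ratios of its own name. For this antibody 23 other names were above it, and that of total AURKA was 0.301 with 37 above it. Unlike for CDKN1B_P-S10, no other name followed closely, the best correlation being 0.554 for AURKA_P-T288/T232/T198 and 0.667 for AURKA. The reason for these low correlations was not tested.

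Among 11 histone and histone deacetylase analytes, total histone H3 (HIST1H3A) was the only call. Its RFI varied widely at 8.46, 3.03 and 6.07 under CIDB and at 1.77, 0.175 and 1.93 in the controls. The difference of 2.67 (SE 0.667, limma adjusted p = 4.22e-03) was the largest rise and had the largest SE of the 7 higher calls. Control animal 5, at 0.175, decided it: without this animal the difference was 1.54 (adjusted p = 0.294). In corn oil set 4 HIST1H3A was 3.66, 1.56 and 4.07, and against all 6 corn oil animals the difference was 1.79 (adjusted p = 0.0464). HIST1H3A_TM-K27, a mark of silenced chromatin, was 0.188, 0.141 and 0.171 against 0.0853, 0.104 and 0.126. Its difference of 0.67 was not called (adjusted p = 0.197). The other modified forms of H3 overlapped, with HIST1H3A_A-K18 at 0.24, HIST1H3A_DM-K4 at 0.19, HIST1H3A_P-S10 at 0.33 and HIST1H3A_P-S28 at 0.14. HDAC2, HDAC3 and HDAC6 lay between -0.08 and 0.30 and overlapped too.

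GLUL and HNF4A were called lower among the 6 hepatocyte analytes. GLUL, glutamine synthetase, is made by the hepatocytes around the central vein and is a target of beta-catenin. Its RFI was 0.194, 0.0122 and 0.0857 under CIDB and 0.573, 1.53 and 0.758 in the controls (limma adjusted p = 1.72e-04). The highest CIDB animal was below the lowest control, and since all 3 lay near 0 a fold change would have no meaning. With 0.1 added before the logarithm the adjusted p was 0.0786, and with the deposited log2 ratios it was 0.236. GLUL was also low outside CIDB, with 0.389, -0.249 and 0.127 under DMN and -0.660 in animal 3 of set 4. HNF4A, the transcription factor that maintains hepatocyte identity, was 1.51, 1.24 and 1.24 under CIDB and 1.71, 2.23 and 1.86 in the controls. It fell by 0.54 (SE 0.172, limma adjusted p = 3.82e-02), the smallest difference among the calls. HNF4A kept its sign but lost its call in 7 of 15 alternatives, among them the comparison with all 6 corn oil animals (-0.41, adjusted p = 0.102) and the exclusion of CIDB animal 2, CIDB animal 3, control animal 5 or control animal 6 (-0.56 to -0.43, adjusted p = 0.0820 to 0.294). In the beta-catenin list of 12 analytes GLUL was the only call, and CTNNB1 itself was 3.28, 3.12 and 2.82 against 1.54, 2.27 and 2.83, a difference of 0.51 (adjusted p = 0.245).

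The list of cytochrome P450 enzymes, which oxidise drugs and steroids, gave 1 call in 13 analytes and a median of -0.10. CYP3A4_2 was 0.490, 0.347 and 0.281 under CIDB and 0.553, 1.95 and 1.08 in the controls. It fell by 1.53 (SE 0.320, limma adjusted p = 3.86e-04), although CIDB animal 1 and control animal 4 were close to each other. The other antibody of the same symbol, CYP3A4_1, gave 6.86, 7.12 and 5.64 against 5.72, 7.87 and 4.85, an overlap with a difference of 0.11 (adjusted p = 0.867). The antibodies named CYP3A4 therefore differed in their result, and which rat CYP3A protein each binds was not given in the sources used here. CYP2C8 was 1.49, 1.46 and 0.948 against 1.64, 2.98 and 2.93, with a difference of -0.93 that was not called (adjusted p = 0.230). CYP2B6_3 was 54.3, 41.5 and 20.5 against 69.6, 83.9 and 65.3, also below all controls and not called (-1.02, adjusted p = 0.262). The remaining analytes of this list, which include CYP1A1, CYP1A2, CYP2D6 and CYP2E1, overlapped, and their differences ran from -0.21 to 0.27. Outside the list, CYP4F2 was 0.595, 0.510 and 0.583 against 0.397, 0.503 and 0.481, above all controls and not called (0.29, adjusted p = 0.750). CYP3A5, also outside the list, overlapped with a difference of 0.015 (adjusted p = 0.983).

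**Figure D3:**
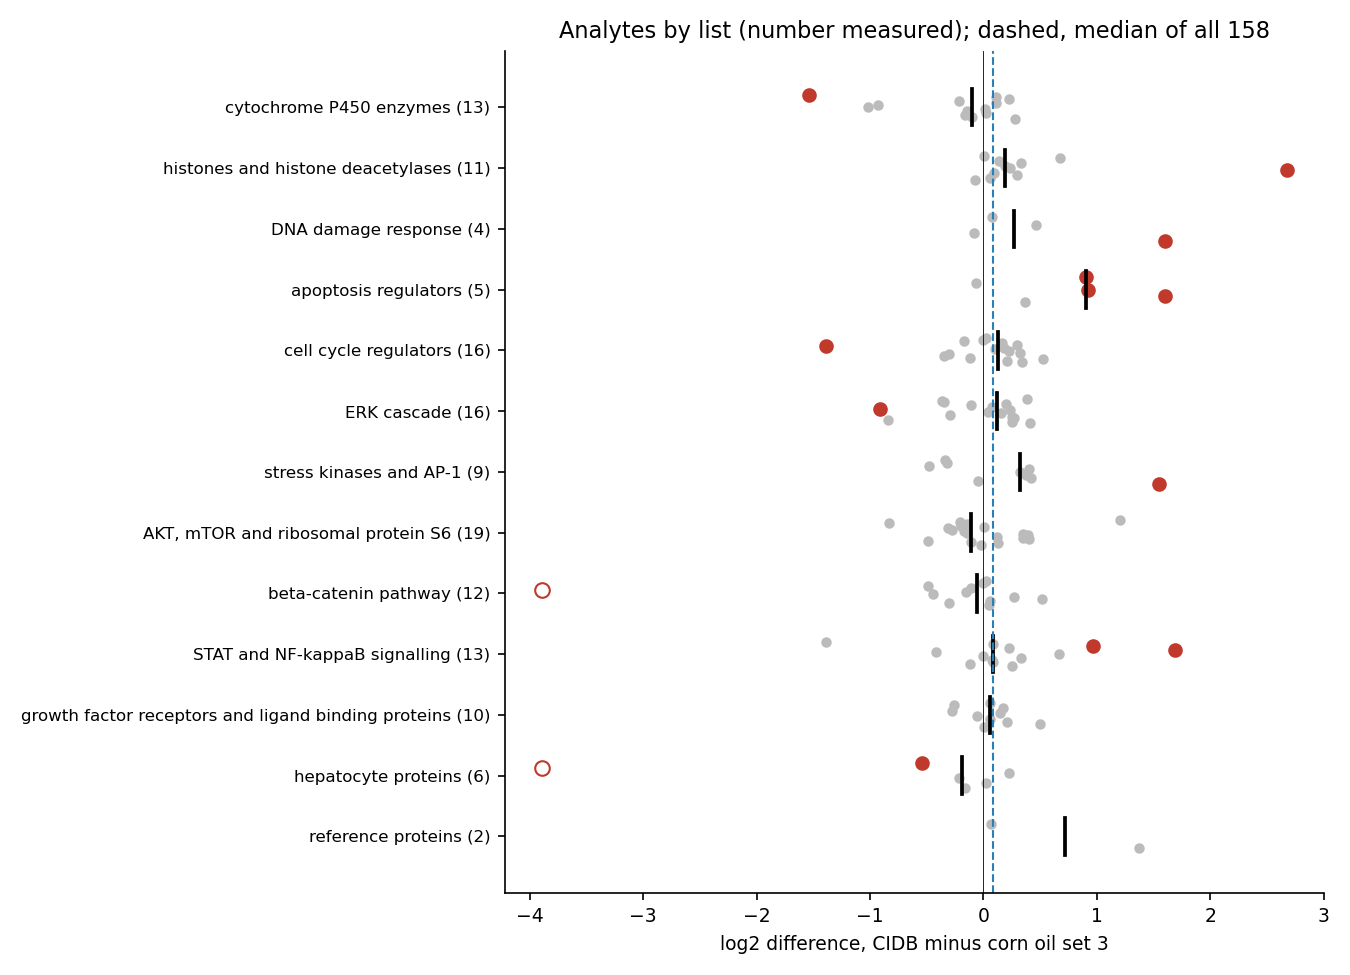
Log2 differences between CIDB and corn oil set 3 by gene list, with the number of measured analytes in brackets, called analytes in red (GLUL as an open circle, its position no measure of size), the others in grey and the list median as a black bar. The apoptosis regulators have a median of 0.91, with 3 of 5 called, while the lists of AKT, mTOR and ribosomal protein S6 and of growth factor receptors hold no call.

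No analyte was called among the 19 of AKT, mTOR and ribosomal protein S6, which had a median of -0.11 and ran from -0.83 to 1.21. The inhibitory phosphorylation GSK3B_P-S9 was 0.187, 0.131 and 0.146 under CIDB and 0.228, 0.201 and 0.214 in the controls, below all 3 and not called (-0.48, adjusted p = 0.218). The growth signal RPS6_P-S235/S236 varied from 3.01 to 8.85 under CIDB and from 1.18 to 4.21 in the controls, and its difference of 1.21 was not called (adjusted p = 0.284). The 10 analytes of growth factor receptors and ligand binding proteins also gave no call, with a median of 0.06 and a range of -0.28 to 0.50. Of the proteins often used as references, GAPDH differed by 0.07 (adjusted p = 0.969). ACTB was 1.22, 0.850 and 1.17 under CIDB and 1.12, 0.956 and 0.0657 in the controls, with control animal 6 far below the others, and was not called (1.37, adjusted p = 0.599). Lysates were brought to equal protein concentration before printing, and the values were not divided here by GAPDH or ACTB. The study's methods do name labelled serum albumin as reference material on the arrays and a normalization over the array.

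Across the series, the 3 CIDB animals stood at the extreme for BAX, STAT3 and JUN. No animal of the other 60 reached the lowest CIDB animal in BAX (1.39), STAT3 (5.68) or JUN (0.631). The group with the next highest mean was DMN for BAX (0.900 ± 0.218, SD, n = 3), and diethylstilbestrol (DES) for STAT3 (3.18 ± 0.563) and for JUN (0.344 ± 0.0977). The 18 control animals of both vehicles ran from 0.432 to 0.745 in BAX, from 1.46 to 2.67 in STAT3 and from 0.182 to 0.389 in JUN. For STAT3_P-Y705 a single other animal, a methylcellulose control of set 6, reached the lowest CIDB value, with 0.550 against 0.530. For MCL1 a single ethionine animal did so, and for BCL2L1 a single methylcellulose control of set 6. CYP3A4_2 was as low as the CIDB animals in 1 animal given thioacetamide and in none of the 18 controls. These 7 analytes are described here without a test, since vehicles, durations and doses differed between the groups.

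Other called analytes reached the CIDB levels in more animals. CDKN1B_P-S10 was as low as the highest CIDB animal in 11 other animals of 8 compounds, among them DMN and DES, but in none of the 18 controls, which ran from 1.95 to 6.40. HIST1H3A was as high as the lowest CIDB animal in 25 other animals, 7 of them controls. GLUL was as low as the highest CIDB animal in 19 others, 3 of them controls. HNF4A was so in 6 others and MAPK3_P-T202/Y204 in 10 others, with 1 control in each.

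**Figure D4:**
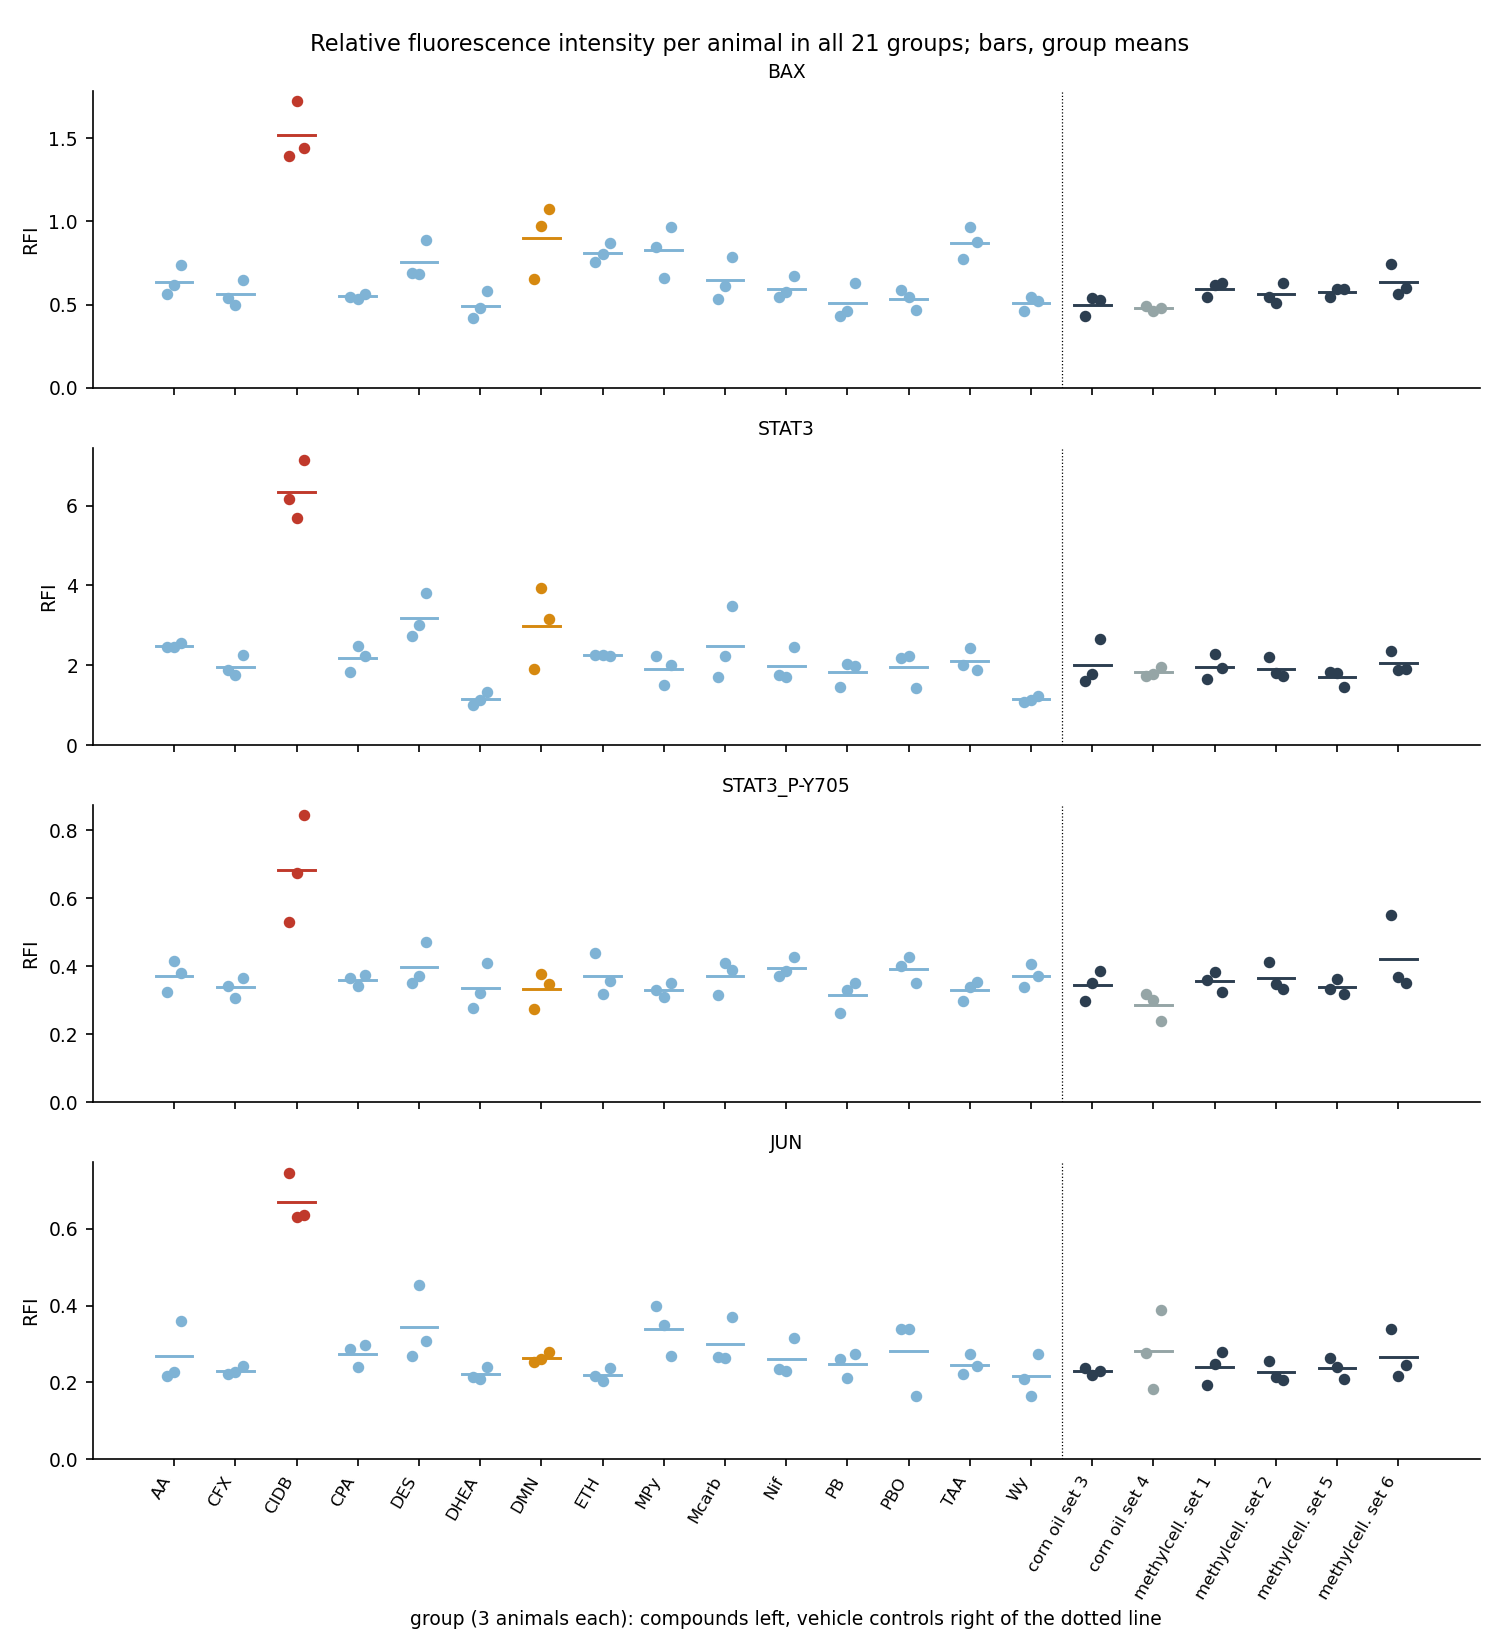
RFI of BAX, STAT3, STAT3_P-Y705 and JUN in each animal of all 21 groups (linear axes from 0), with bars for group means, the 15 compounds on the left and the 6 vehicle control sets on the right of the dotted line. The 3 CIDB animals are above all other animals for BAX, STAT3 and JUN, and above all but 1 methylcellulose control animal for STAT3_P-Y705.

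DMN is the other genotoxic carcinogen given in corn oil for the same 7 days, so CIDB and DMN were compared directly. The doses of 146 and 4 mg/kg/d differed, and the comparison is between these dosed groups rather than at matched doses. Of 158 analytes 5 (3.16%) were called. BAX, STAT3, STAT3_P-Y705 and JUN were higher under CIDB (2.53%) and 1 analyte was lower (0.633%). In 42 analytes (26.6%) the 3 CIDB animals did not overlap with the 3 DMN animals, 36 of them above (22.8%), and the median difference over all analytes was 0.13. The 4 higher calls had all been called against the corn oil animals as well. Both comparisons use the same 3 CIDB animals and the same fit, so this overlap is not independent evidence. DMN itself had 2 calls against set 3 (1.27%), both higher and BAX among them, and 9 analytes (5.70%) at an unadjusted p below 0.05. CIDB and DMN share these 3 control animals, so their differences to set 3 are given side by side and not as independent evidence.

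BAX was 0.655, 0.974 and 1.07 under DMN, between the controls and the CIDB animals. Under DMN it was 0.82 above set 3 (limma adjusted p = 8.00e-04, but 0.375 in a fit on these 6 animals alone), and CIDB was higher than DMN by 0.78 (SE 0.166, limma adjusted p = 7.87e-04). Without DMN animal 1, the lowest, this difference was 0.56 (adjusted p = 0.0599). STAT3 was 1.90, 3.92 and 3.16 under DMN, which was not called against set 3 (0.55, adjusted p = 0.492), and CIDB was higher than DMN by 1.14 (SE 0.218, limma adjusted p = 1.69e-04). STAT3_P-Y705 was 0.275, 0.378 and 0.348 under DMN, overlapping the controls, and CIDB was higher by 1.02 (SE 0.168, limma adjusted p = 1.73e-05). JUN was 0.254, 0.262 and 0.278 under DMN, and CIDB was higher by 1.34 (SE 0.232, limma adjusted p = 3.23e-05). Fitted on the 6 CIDB and DMN animals alone, limma kept the call of JUN but not those of BAX (adjusted p = 0.141), STAT3 (0.0799) and STAT3_P-Y705 (0.0529).

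The other analytes called against corn oil were not called between the compounds in this fit, although MCL1 was called in 4 alternatives and BCL2L1, CYP3A4_2, GLUL, HNF4A and MAPK3_P-T202/Y204 in 1 or more. MCL1 was 0.242, 0.278 and 0.277 under DMN, below all CIDB animals, with a difference of 0.74 (95% confidence interval 0.28 to 1.21, adjusted p = 0.0585). BCL2L1 differed by 0.69 (0.22 to 1.16, adjusted p = 0.108), CYP3A4_2 by -0.88 (-1.52 to -0.23, adjusted p = 0.152) and HNF4A by -0.49 (-0.84 to -0.15, adjusted p = 0.123). CDKN1B_P-S10 differed by -0.48 (-1.03 to 0.07, adjusted p = 0.383) and HIST1H3A by 0.73 (-0.62 to 2.07, adjusted p = 0.645). MAPK3_P-T202/Y204 was 2.29, 2.35 and 2.01 under DMN, above all CIDB animals, and differed by -0.63 (-1.12 to -0.15, adjusted p = 0.166). GLUL had an adjusted p of 0.261, with the DMN animal below 0 left out of the fit. A call missed here does not show that CIDB and DMN acted alike.

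**Figure D5:**
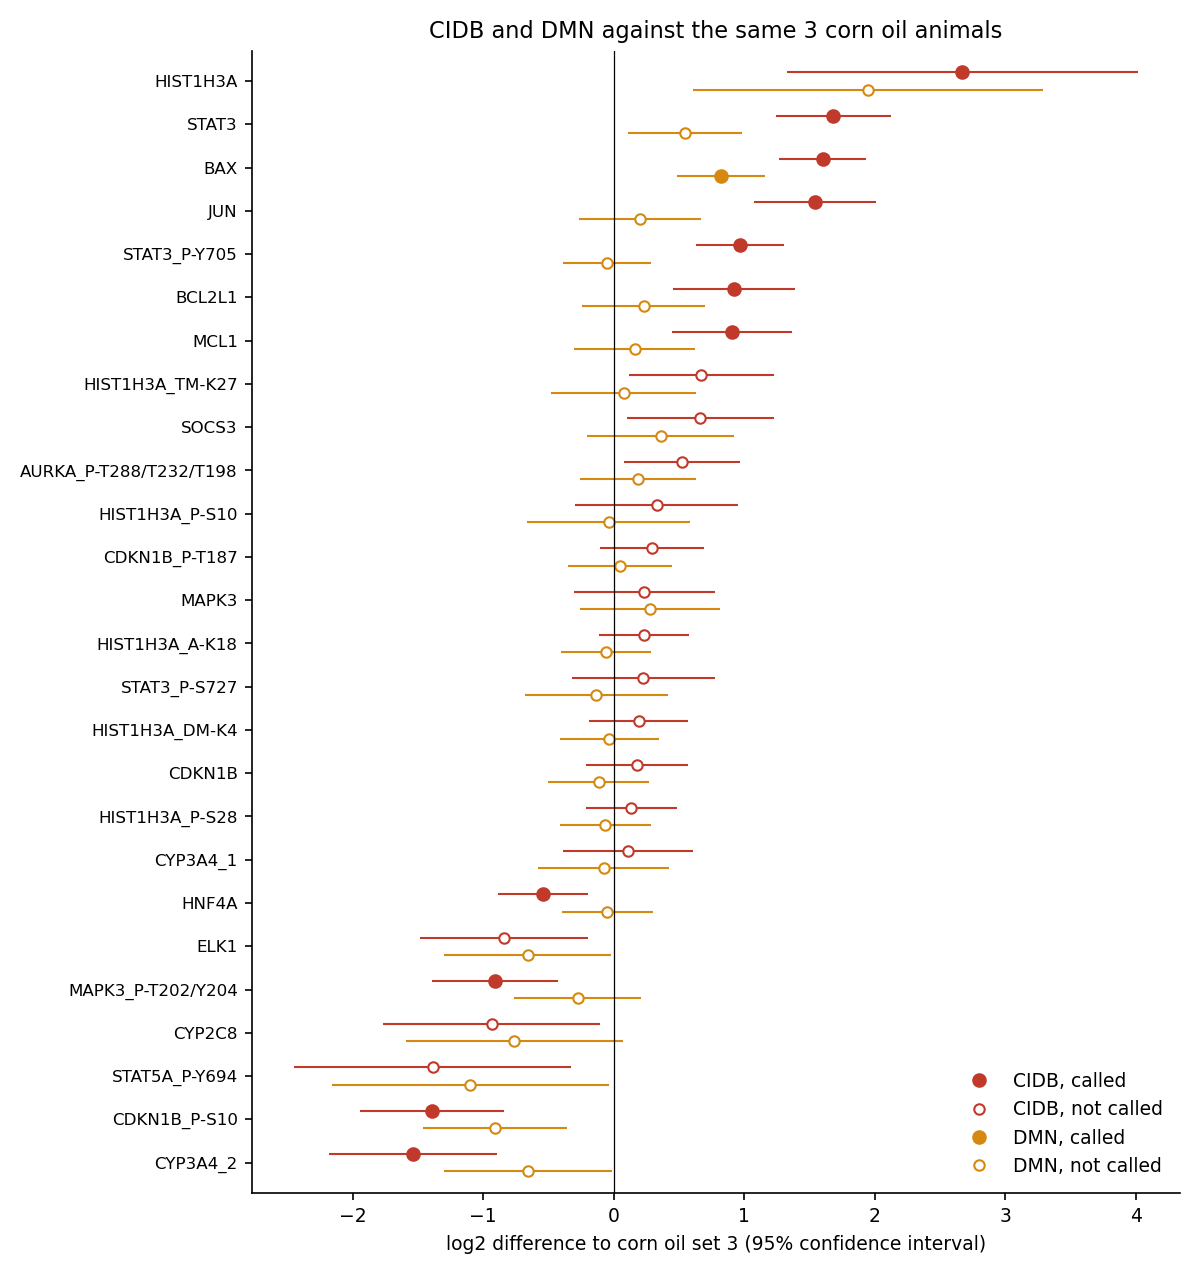
Log2 differences of CIDB (red) and DMN (orange) to the same 3 corn oil animals for 26 named analytes, with 95% confidence intervals from limma, filled circles for called analytes and open circles for the others. JUN and STAT3_P-Y705 are at 1.54 and 0.97 under CIDB and at 0.20 and -0.05 under DMN.

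The corn oil animals themselves give the background of such calls. Between set 3 (7 days) and set 4 (14 days), limma called 0 of 158 analytes (0.0%), with 18 (11.4%) at an unadjusted p below 0.05, and 6 (3.80%) did not overlap. Set and duration cannot be told apart in this comparison. Of the 12 analytes called under CIDB, 10 had set differences between -0.23 and 0.41 and were not called there. GLUL is among these 10, but animal 3 of set 4 (-0.660), lower than all CIDB animals, was left out of its difference as missing. HIST1H3A was lower in set 3 by 1.76, MAPK3_P-T202/Y204 was higher by 0.50, and the P450 enzyme CYP2C8, which was not called, was higher in set 3 by 1.24. Animal 3 of set 4 stood apart from its group in several analytes, for example with a CYP2C8 of 0.374, and without it limma again called 0 analytes, with 4 at an unadjusted p below 0.05. BAX in the 6 corn oil animals ran from 0.432 to 0.541 and STAT3 from 1.60 to 2.67, so their CIDB values also lay above both sets.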

How the data were processed

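Liver lysates were printed and probed on ZeptoMARK reverse-phase arrays. According to the study's methods, the authors corrected spots for local background, normalized them over the array and averaged replicate spots, and they deposited the RFI, a linear intensity, per animal. Whether the signal of the secondary antibody alone was subtracted from the deposited intensity is not stated with the values. The authors also deposited log2 ratios to control medians with missing values imputed, used here as an alternative. Groups, doses and durations came from the labels.

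Values at or below 0 (25 of 9954) were set to missing and the rest log2 transformed. limma 3.58.1 (R 4.3.3) fitted 21 group means over all 63 animals, tested on simulated data first. P-values were two-sided and adjusted over 158 analytes. Named were all calls, analytes of the same symbols, GLUL, JUN, CDKN1B and CYP2C8 from the study's signature, and the 5 uncalled analytes closest to the threshold; other analytes are given as list members chosen after their values were seen. Results of some analytes, counted in the totals, are not reported here. The members and lists were chosen with earlier results of these data known. Each label names a separate animal. Array runs were not given in the sources used here, so batches were not tested, and 3 animals per group limit the precision. Alternatives were the animals of a comparison alone, a variance trend, centring, imputation, an offset, dim analytes left out, the deposited log2 ratios, each animal left out, all corn oil animals and a replicate block.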

Additional observations from a re-analysis of the deposited data

How the results depend on the processing

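Against corn oil set 3, the count of 12 stayed between 9 and 16 in 15 alternatives. Leaving out each animal gave 9 to 13 calls for CIDB against corn oil, 4 to 6 for CIDB against DMN, and 0 to 1 between the control sets, the single call (RPS6KB1_P-T389) arising without animal 2 of set 4. BAX, STAT3, STAT3_P-Y705 and JUN were called against corn oil in all 15 alternatives, and JUN against DMN in all 14. Centring each animal added AURKA_P-T288/T232/T198, ELK1, GSK3B_P-S9 and HIST1H3A_TM-K27 to the 12. With the deposited log2 ratios, whose median over analytes was -0.15 instead of 0.08, 10 of the 12 were shared and CDKN1B turned to -1.58; the list medians of histones (-0.02), DNA damage (-0.02), cell cycle (-0.16), the ERK cascade (-0.14), stress kinases (-0.26), STAT signalling (-0.22), receptors (-0.36) and reference proteins (-0.06) turned negative there, and relative to the median of all analytes stress kinases turned to -0.11, STAT signalling to -0.07 and cell cycle to -0.01, while apoptosis regulators were at 1.00. With the 6 animals of the comparison alone, CYP3A4_2 (adjusted p = 0.0617), HIST1H3A (adjusted p = 0.101) and HNF4A (adjusted p = 0.115) lost their calls and ELK1, PAK1_P-S141 and STAT5A_P-Y694 gained them. In that fit the limma adjusted p was larger than in the main fit for BAX and JUN (6.74e-04 each), STAT3 (1.73e-03) and STAT3_P-Y705 (0.0298). Without animal 3 of set 4, an alternative chosen after the data were seen, the comparison with the other 5 corn oil animals gave 12 calls, 11 of them shared.

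Between CIDB and DMN, 5 calls (4 higher, 1 lower) became 3 with the 6 animals alone (2 shared, MCL1 gained), 10 with centring (7 higher, 3 lower), 9 with the deposited log2 ratios (4 higher, 5 lower) and 9 in a fit with a replicate block (6 higher, 3 lower). The causes were not tested. Animals of equal number correlated at 0.416, 0.072 and 0.384 for numbers 1, 2 and 3. DMN animal 2 correlated best with CIDB animal 3 (0.281), and the other unlike pairs ran from -0.458 to -0.006. Whether the numbers pair the animals was therefore not settled. CIDB and set 3 share no numbers, so no paired fit was possible there. The smallest difference called with 3 animals per group was -0.54 (HNF4A), so smaller ones may have gone without a call. Larger ones with a large SE also went without a call, such as ACTB at 1.37 (SE 1.17).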
